A study of Mus musculus with 6 samples.

Results

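The genes studied here belong to the YAP and TEAD pathway and were followed in 6 RNA sequencing libraries of ID8, a tumorigenic line derived from mouse ovarian surface epithelium. They are 10 genes taken by symbol from the 53465 genes of the count table. They comprise 6 target genes (Ankrd1, Ccn1, Ccn2, Crim1, Ptpn14 and Amotl2) and 4 factors of the pathway itself (Yap1, Wwtr1, Tead1 and Lats2). The list was selected on the log2 fold changes between KO-labelled and WT libraries, already known when it was drawn up, so the members' differences between these groups are a description and carry no test of their own. The series set out to profile transcripts after depletion of NAT10, the enzyme that places N4-acetylcytidine on RNA. Its 2 groups hold 3 libraries each, with replicates numbered 4 to 6. The labels call them WT and KO, and the series describes ID8 cells stably transfected with a control guide (sgNC) or with a guide against Nat10 (sgNat10). WT was read as the control guide and KO as the Nat10 guide, a reading the labels do not state outright, and the labels name no drug. The guide and the line cannot be told apart. The labels do not say if a line is a clone or a pool, nor if replicates are separate cultures, so errors and p-values measure the spread between libraries, which may be technical.

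YAP, the product of Yap1, and its relative TAZ, the product of Wwtr1, are coactivators that do not bind DNA themselves. In the nucleus they act through the TEAD factors, which recognise the short element CATTCC. The kinases LATS1 and LATS2 of the Hippo pathway phosphorylate YAP and TAZ, which holds them in the cytoplasm or sends them to degradation. Targets such as Ankrd1, Ccn1 and Ccn2 are common readouts of YAP activity, and several targets, Lats2, Amotl2 and Ptpn14 among them, encode proteins that restrain YAP. Cell spreading, a stiff matrix and actin tension favour nuclear YAP in epithelial and mesothelial cells.

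The TEAD element is shown first, since expression values do not enter a sequence. They did enter the choice of the members, which include known YAP targets, so the shares below are no test. RefSeq promoter windows of build GRCm38.p6, from 250 bases before to 50 bases after a start site, were matched for 8 of the 10 members, all but Ccn2 and Tead1. Every one of these 8 genes held CATTCC on one strand or the other, against 16.6% of all 27025 genes with a window. The longer form CATTCCT, the MCAT element, stood in 6 of the 8 genes and in 6.15% of all genes. Of the 9 genes of a published YAP and TAZ signature that had a window and are not members, 1 held CATTCC. Of 5 further reported YAP and TAZ targets with a window, 1 held it. A match is a description of the letters and not evidence of binding, and the members were not drawn at random. The sites of 5 targets and of Yap1 are given below with 12 bases on each side, 5′ to 3′ on the strand of the gene. Capitals mark the element, which reads GGAATG where it lies on the opposite strand.
Ankrd1, chr19:36120037-36120066, 210 bases before the start: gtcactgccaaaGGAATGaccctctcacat
Ankrd1, chr19:36119950-36119979, 123 bases before the start: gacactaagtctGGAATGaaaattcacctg
Ccn1, chr3:145650071-145650100, 103 bases before the start: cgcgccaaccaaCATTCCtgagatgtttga
Crim1, chr17:78200157-78200186, 79 bases before the start: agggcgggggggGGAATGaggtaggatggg
Ptpn14, chr1:189728110-189728139, 146 bases before the start: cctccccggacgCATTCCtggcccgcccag
Amotl2, chr9:102717727-102717756, 65 bases before the start: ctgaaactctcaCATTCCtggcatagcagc
Yap1, chr9:8004720-8004749, 141 bases before the start: cgggagtctgcaGGAATGtagcgacgcgca

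Ankrd1 was the member with 2 sites. Ankrd1, Ccn1 and Yap1 lie on the minus strand, and Crim1, Ptpn14 and Amotl2 on the plus strand. Wwtr1 held 1 site, 136 bases before its first RefSeq start and 170 bases before its second. Lats2 held 1 site 5 bases into the transcript of one start, and its other window had none. No member window held the AP-1 element TGANTCA, which 8.97% of all genes held, or the CArG box bound by serum response factor, which 1.81% held. The elements were searched on both strands, and CATTCCT sites are a subset of CATTCC sites. The map of site positions shows the element before the RefSeq start site in 7 of the 8 genes. The sites of Ankrd1 and Amotl2 nonetheless lie inside the GENCODE bounds given below for these genes, which reach further upstream than the RefSeq start.

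**Figure D1:**
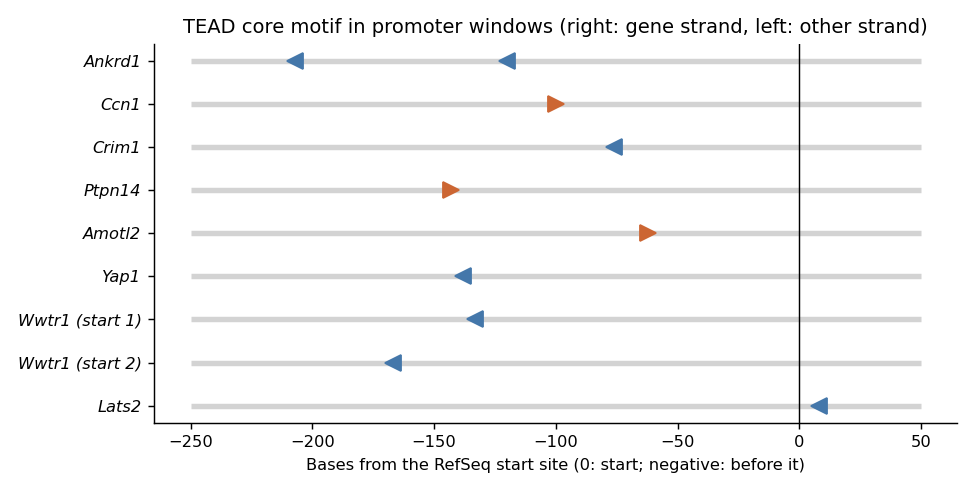
Position of the TEAD element in the RefSeq promoter windows of members, in bases from the start site (x axis), with 1 row a start site (y axis). Arrows pointing right are sites on the strand of the gene and arrows pointing left are on the other strand. Ankrd1 has 2 sites, at 210 and 123 bases before the start, and Lats2 has its site after the start. The second Lats2 window, without a site, is not drawn.

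The libraries were shallow, with 1687466 to 2148715 counts in WT and 2234305 to 3126208 in KO-labelled libraries. Every KO-labelled library was thus deeper than every WT library. Raw counts given below are not scaled for this, whereas CPM values and log2 fold changes are. The spread between replicates was wide. The common coefficient of biological variation over the 8200 tested genes was 0.99 in edgeR. Nat10 itself had 168, 128 and 292 counts in WT replicates 4 to 6 and 315, 133 and 445 counts in KO replicates 4 to 6, a log2 fold change of -0.07 with a 95% interval from -1.09 to 0.94. Its mRNA therefore gives no check of the KO label, and groups are named here by their labels. All 8 markers of ovarian surface epithelium and mesothelium had a count, and their summed level ran from 6222 to 6668 CPM in WT and from 4681 to 5337 CPM in KO-labelled libraries. The sum joins opposite differences. Among the 7 tested markers the keratin genes Krt18 and Krt19 fell by 1.74 and 0.92 on the log2 scale, the mesothelin gene Msln rose by 1.05 (edgeR adjusted p = 0.0195, 0.0044 and 0.0145), and the other 4 did not pass. Krt7 had 6 counts, all in WT replicate 4. Markers of fibroblasts, leukocytes and endothelium summed to at most 14.5 CPM in any library, with Thy1, Cd3e, Cd79a and Emcn at 0 throughout. The part of these markers in the results was not tested. Over all genes 33 of 8200 passed an adjusted p of 0.05 (edgeR, quasi-likelihood fit). In KO-labelled libraries 15 of them were higher and 18 lower. With library totals in place of TMM scaling the split was 27 higher and 16 lower.

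All 6 target genes had a higher mean in the KO-labelled libraries, and Ankrd1 was the 1 that passed the threshold over all genes. The edgeR adjusted p of the other targets ran from 0.292 (Ccn2) to 0.57 (Amotl2). Of the 9 members that could be tested, 1 passed, where 0.402% of all tested genes did, 0.183% higher and 0.22% lower. In 5 of the 6 targets every KO-labelled library stood above every WT library, and in 1 factor, Yap1, every KO-labelled library stood below. Groups without overlap were found in 14.9% of the genes tested, 6.94% with KO higher and 7.93% with KO lower. The median log2 fold change of the 6 targets was 1.03 and that of all tested genes was -0.02. Since the genes were chosen with these values known, nothing is read from these counts.

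Ankrd1 (ENSMUSG00000024803, chromosome 19, 36111961 to 36120099 in mm10) encodes a nuclear ankyrin repeat protein of striated muscle and of stressed or stretched cells. It stood at 203, 270 and 177 CPM (reads of the gene scaled to library size with TMM) in WT replicates 4, 5 and 6. In KO replicates 4, 5 and 6 it stood at 1576, 1228 and 1473 CPM. The lowest KO-labelled library was far above the highest WT library, and each group was tight around its mean. Its WT mean was 217 ± 47.9 CPM and its mean under the KO label 1426 ± 179 CPM (SD, n = 3 each). Ankrd1 thus rose 6.57-fold, or by 2.72 ± 0.22 (SE) on the log2 scale (95% interval 2.25 to 3.18). With 1 library left out the log2 fold change ran from 2.59 to 2.90, and the call held in all 6 of these fits.

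Ankrd1 is also a striated muscle gene, so muscle markers are given beside it. Of 5 muscle markers 4 had a count, Myod1 was at 0 throughout, and their summed level ran from 0 to 8.51 CPM in WT and from 0 to 103 CPM in KO-labelled libraries. Actc1, the cardiac actin, had 236 counts in KO replicate 6 and 0 in the other libraries. Des and Ckm had 16 and 12 counts, also in KO replicate 6 alone. Tnnt2, the muscle marker that could be tested, had 14, 0 and 0 counts in WT and 0, 55 and 69 in KO replicates 4 to 6. The log2 fold change of Tnnt2 was 2.38 with a 95% interval from -3.52 to 8.29. The log2 fold change of Ankrd1 was 2.69 without KO replicate 6 and 2.82 without KO replicate 5. Its relatives Ankrd2 and Ankrd23, which encode the other muscle ankyrin repeat proteins, had no count in any library. Exons of Gm42417 on the same strand overlap 78.2% of the Ankrd23 exons, and reads in such a stretch can be left uncounted. The absence of Ankrd23 counts is therefore no measure of its level.

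Ccn1 and Ccn2 encode secreted matricellular proteins, formerly CYR61 and CTGF, that bind integrins and growth factors. Ccn1 (chromosome 3, 145646976 to 145649981) stood at 55.3, 66.0 and 28.3 CPM in WT replicates 4 to 6 and at 118, 88.6 and 158 CPM in KO replicates 4 to 6. The groups did not overlap, and the highest WT library lay close below the lowest KO-labelled one. Its mean was 2.43-fold higher, with a log2 fold change of 1.28 ± 0.49 (SE) and a 95% interval from 0.23 to 2.34.

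Ccn2 (chromosome 10, 24595442 to 24598683) stood at 221, 324 and 147 CPM in WT replicates 4 to 6 and at 470, 390 and 528 CPM in KO replicates 4 to 6. Its mean was 2.01-fold higher, with an interval of the log2 fold change from 0.38 to 1.63. Exons of Gm15270 on the opposite strand overlap 23.2% of the Ccn2 exons, but Gm15270 had 0 counts in every library, and the sources do not give the strand mode of the counting. DESeq2 and the fit without a filter on low counts called Ccn2 higher, and edgeR as reported did not.

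The order of the libraries within a group, which the choice of members did not use, was shared by several targets. Ankrd1, Ccn1, Ccn2 and Amotl2 were each highest in WT replicate 5 and lowest in WT replicate 6, an order that 22% of all tested genes had. Ccn1, Ccn2 and Ptpn14 were each highest in KO replicate 6 and lowest in KO replicate 5, an order found in 18.3% of all tested genes. Each of these was the most frequent order of its group over all tested genes. Ccn1 and Ccn2 thus had the same order in both groups, while Ankrd1 was highest in KO replicate 4. How many of all tested genes had the orders of Ccn1 and Ccn2 in both groups was not counted. With 3 libraries a group these orders are a description.

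**Figure D2:**
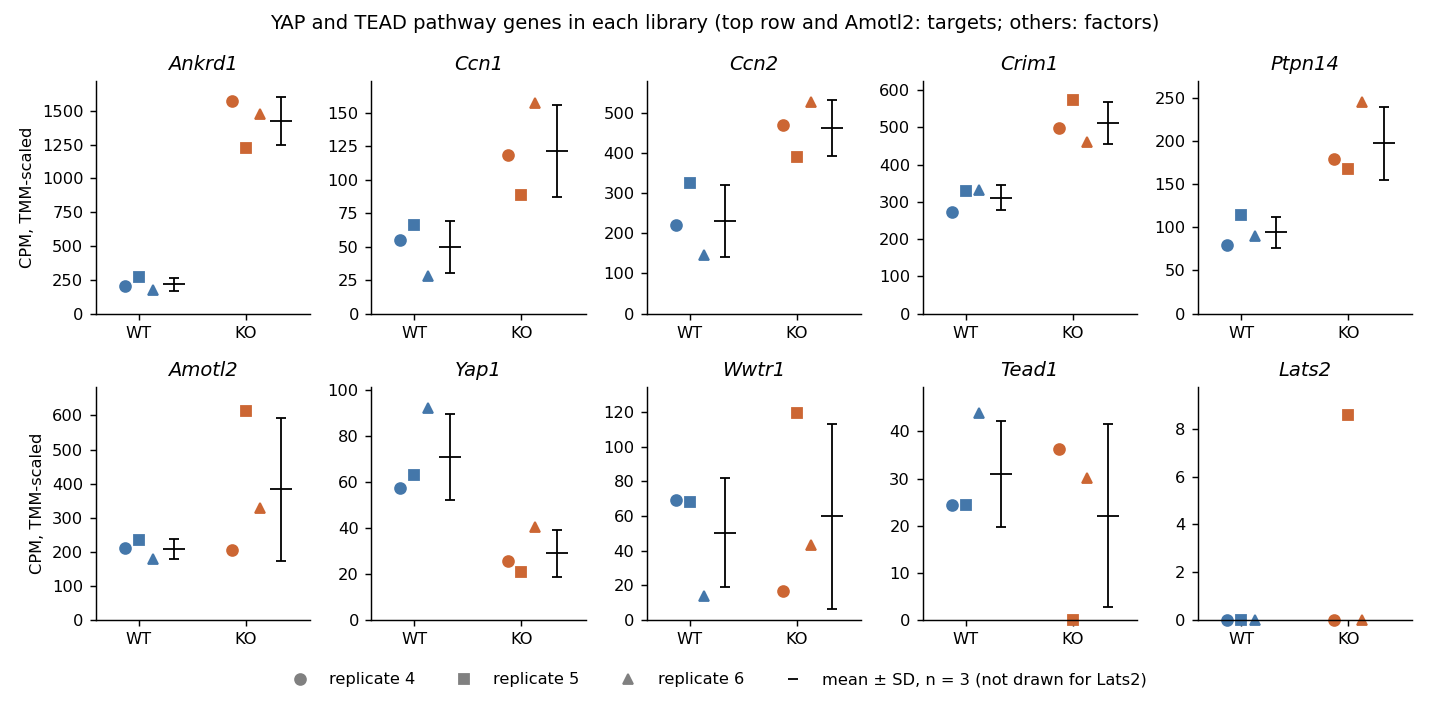
Level of each of the 10 members in every library, in CPM scaled by TMM (y axis, from 0), for WT (blue) and KO-labelled (orange) libraries; symbols mark the replicate number, and the black bars give the mean ± SD of 3 libraries, left out for Lats2. The 3 KO-labelled values of Ankrd1 lie between 1228 and 1576 CPM, all above the WT values, while those of Wwtr1 and Tead1 spread across the WT range.

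Crim1 and Ptpn14 also had groups apart from each other. Crim1 (chromosome 17, 78200248 to 78376592) encodes a transmembrane protein that binds bone morphogenetic proteins. It stood at 274, 329 and 332 CPM in WT replicates 4 to 6 and at 499, 573 and 462 CPM in KO replicates 4 to 6. The groups were well apart, although the mean differed only 1.64-fold, and the interval of the log2 fold change ran from 0.24 to 1.19. With 1 library left out its log2 fold change stayed between 0.63 and 0.78.

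Ptpn14 (chromosome 1, 189728268 to 189876695) encodes a tyrosine phosphatase that binds YAP and keeps it out of the nucleus. It stood at 79.0, 114 and 89.6 CPM in WT replicates 4 to 6 and at 179, 167 and 245 CPM in KO replicates 4 to 6. The groups did not overlap, and the mean was 2.09-fold higher with an interval of the log2 fold change from 0.32 to 1.81. DESeq2 called Crim1 and Ptpn14 higher, so that it called 4 of the 10 members, all higher. It called 2.5% of the 9357 genes it gave an adjusted p, and 1.14% as higher.

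Amotl2 (chromosome 9, 102716672 to 102733418), a scaffold of the angiomotin family that holds YAP at junctions and actin, was the target whose groups overlapped. It stood at 212, 234 and 178 CPM in WT replicates 4 to 6 and at 206, 613 and 329 CPM in KO replicates 4 to 6. KO replicate 4 lay within the WT range and KO replicate 5 far above it. The log2 fold change was 0.88 with an interval from 0.14 to 1.62, and it fell to 0.38 without KO replicate 5.

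**Figure D3:**
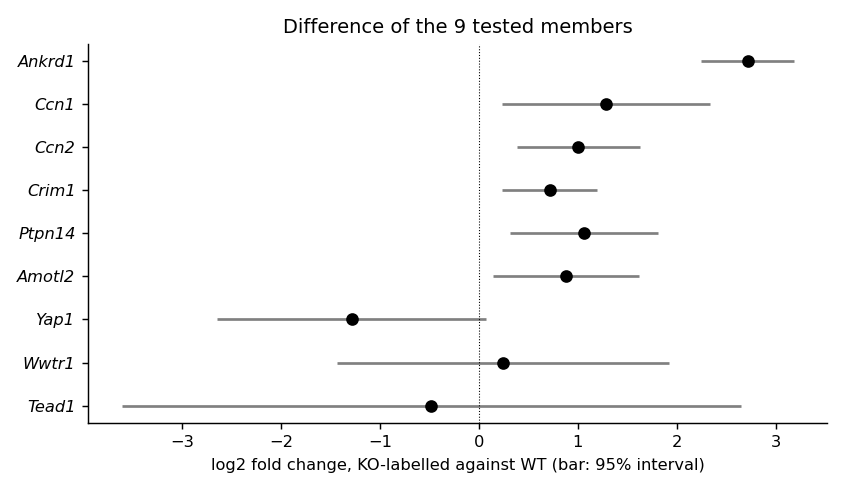
Log2 fold change of KO-labelled against WT libraries (x axis) for the 9 tested members (y axis); points are edgeR estimates and bars their 95% intervals. Ankrd1 stands apart at 2.72, the other 5 targets lie between 0.71 and 1.28, and the intervals of Yap1, Wwtr1 and Tead1 include 0. The intervals are not adjusted for the number of genes tested. The members were chosen on these estimates, so a bar that excludes 0 is no test.

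The 3 factors that could be tested had wider intervals than any target, and their estimates did not share a direction. The intervals of Wwtr1 and Tead1 include the target median of 1.03, so whether these factors differed from the targets cannot be decided. Yap1 (chromosome 9, 7931999 to 8004596) stood at 57.2, 63.0 and 91.9 CPM in WT replicates 4 to 6 and at 25.4, 21.0 and 40.3 CPM in KO replicates 4 to 6. Every KO-labelled library was thus below every WT library, opposite to the targets. On the log2 scale the difference was -1.29 ± 0.64 (SE; 95% interval -2.65 to 0.07), and Yap1 passed the threshold in none of the fits run. With 1 library left out it stayed between -1.61 and -1.05.

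Wwtr1, the gene of TAZ (chromosome 3, 57455649 to 57575910), stood at 69.3, 68.0 and 13.9 CPM in WT replicates 4 to 6 and at 16.4, 119 and 43.4 CPM in KO replicates 4 to 6. Each group held 1 low library, and the groups overlapped. The log2 fold change was 0.24 with an interval from -1.43 to 1.92, so that differences of several fold in either direction are within the error. Its sign turned without WT replicate 6, to -0.20, and without KO replicate 5, to -0.73.

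Tead1 (chromosome 7, 112679318 to 112906807), a broadly expressed TEAD factor, stood at 24.3, 24.5 and 43.9 CPM in WT replicates 4 to 6. It had 93 and 97 counts in KO replicates 4 and 6 and no count in KO replicate 5, which gives 36.3, 0 and 30.1 CPM. Apart from that library the groups covered the same range. The interval of its log2 fold change, -3.61 to 2.65 includes large differences of either sign, and without KO replicate 5 the value was 0.11.

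Lats2 (chromosome 14, 57689662 to 57758388), the kinase gene that is itself a YAP target, was too low to test. It had 20 counts in KO replicate 5 and 0 counts in each of the other libraries. Exons of Gm49361 on the same strand overlap 42.4% of its exons, and reads in such a stretch can be left uncounted, while Gm49361 itself had 0 counts. The level of Lats2 was therefore not measured well enough to compare.

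Levels of different genes can be set side by side per kilobase of exon, and on this scale 5 of the 6 targets had higher WT means than the factors, with Ptpn14 the exception. In WT libraries Ccn2 had 80.6 ± 31.2, Ankrd1 75.2 ± 16.6 and Crim1 52.0 ± 5.49 CPM per kilobase (SD, n = 3). Ccn2 and Ankrd1 did not differ beyond their spread there. Amotl2 followed at 33.1 ± 4.47 and Ccn1 at 24.7 ± 9.61 CPM per kilobase, again within their spread. Wwtr1 at 10.5 ± 6.62, Yap1 at 7.64 ± 2.01 and Ptpn14 at 7.02 ± 1.33 CPM per kilobase overlapped each other, and Tead1 was lowest of the tested members at 2.28 ± 0.83. In KO-labelled libraries Ankrd1 led alone at 494 ± 61.9 CPM per kilobase, ahead of Ccn2 at 162 ± 24.3. Yap1 had 3.12 ± 1.10 CPM per kilobase there, below Ptpn14 at 14.7 ± 3.15. Fewer transcripts in every cell and fewer cells with the transcript cannot be told apart in such bulk libraries.

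**Figure D4:**
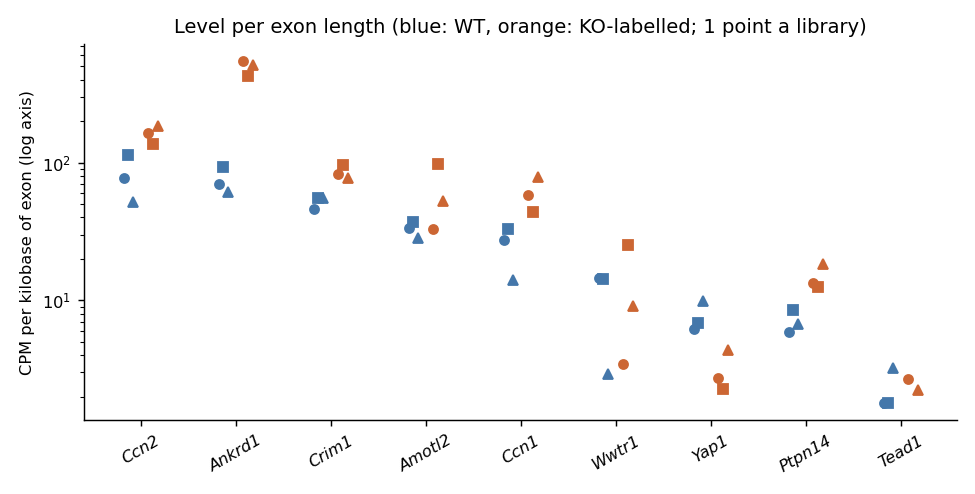
Level of each tested member per exon length, in CPM per kilobase on a log axis (y axis), with 1 point a library; blue is WT, orange is KO-labelled, and symbols mark the replicate as in the plot of levels by library. Ankrd1 moves from beside Ccn2 in WT to the highest level in KO-labelled libraries. The library of Tead1 without counts cannot be drawn on this axis.

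Other genes of the pathway were read from 9 lists with 95 genes, of which 70 could be tested. No gene passed the threshold in the lists other than that of further reported targets. The lists are described by counts and medians beside those of all 8200 tested genes, where 49% had an estimate above 0 and the median log2 fold change was -0.02. At an unadjusted p under 0.05 were 6.49% of all tested genes, 221 higher and 311 lower, and DESeq2 called 2.5% of the genes it gave an adjusted p. The lists were drawn up with earlier results of these data known.

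The published signature of YAP and TAZ activity holds 22 genes, 7 of them members. Of its other 15 genes 11 could be tested, 9 with an estimate above 0 and none past the threshold in edgeR, with 1 at an unadjusted p under 0.05 (6.49% of all tested genes) and 1 called by DESeq2. Their median log2 fold change was 0.30, and 0.52 without KO replicate 4. The most abundant gene of this list, Myof, a membrane repair protein, stood at 1023 ± 256 and 1050.1 ± 173 CPM. Its log2 fold change was 0.04 with a 95% interval from -0.41 to 0.48. Axl, a receptor tyrosine kinase, stood at 256 ± 105 and 344 ± 82.9 CPM (SD, n = 3 per group), with overlapping groups, as did Asap1, a regulator of ARF GTPases, at 83.4 ± 20.2 and 114 ± 31.4 CPM. The gene behind both single calls was Gadd45a, a p53-responsive stress gene, with 0, 3 and 1 counts in WT and 90, 33 and 199 counts in KO-labelled libraries (edgeR adjusted p = 0.511, DESeq2 0.00655). An antisense gene overlaps 19.1% of its exons.

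Of 12 further reported targets 11 could be tested, 8 with an estimate above 0, with a median of 0.97. The median was 1.63 without WT replicate 5 and 0.61 without KO replicate 6. Edn1, the vasoactive peptide endothelin 1, had 16, 1 and 1 counts in WT and 140, 139 and 186 counts in KO-labelled libraries (edgeR adjusted p = 0.452, DESeq2 0.00775). Its log2 fold change of 3.98 became 6.60 without WT replicate 4. Ccnd1, the cyclin D1 gene, went the other way, with 280, 342 and 264 CPM in WT and 138, 232 and 66.7 CPM in KO-labelled libraries (edgeR adjusted p = 0.547), and a gene on the other strand overlaps 23.4% of its exons. Anxa3, an abundant annexin, stood at 1789 ± 58.9 and 2258 ± 181 CPM (SD, n = 3 per group), groups that did not overlap but differed only 1.26-fold.

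Of the other 4 CCN family genes only Ccn4 was detected. This gene, formerly Wisp1, had 31, 45 and 9 counts in WT replicates 4 to 6 and 278, 178 and 523 counts in KO replicates 4 to 6, with the same library order within each group as Ccn1 and Ccn2. Its log2 fold change was 2.89 ± 0.65 (SE; edgeR adjusted p = 0.0742, DESeq2 5.98e-05). Ccn3, Ccn5 and Ccn6 had no count in any library. Exons of Tube1 on the other strand overlap 34.0% of the Ccn6 exons.

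Among the other TEAD factors and their VGLL cofactors, which compete with YAP for TEAD, 3 of 7 could be tested and none passed, with 1 at an unadjusted p under 0.05 and 0 called by DESeq2. Tead4 had 11, 21 and 43 counts in WT libraries and 1, 0 and 0 counts in KO-labelled ones. The ratio of WT over KO was 113 with a 95% counting interval from 19.7 to 4535. With the spread between libraries its log2 fold change was -6.26, with a 95% interval from -12.4 to -0.09 (edgeR adjusted p = 0.748, DESeq2 0.165). Tead3 showed the opposite, with no count in WT and 34, 54 and 0 counts in KO-labelled libraries, at least 19.4-fold higher against a floor of 3 counts over the WT group. Tead2 had no count. Vgll4, an antagonist of YAP at TEAD, had 61, 53 and 59 counts in WT and 32, 3 and 63 counts in KO-labelled libraries, so that its CPM was lower in each of the latter. Vgll3 had 0, 25 and 0 counts in WT against 58, 51 and 47. The counting interval and the floor cover counting error only. They leave out the spread between libraries, and amplified reads are not independent molecules.

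Of 19 Hippo kinases, adaptors and scaffolds 16 could be tested, 12 with an estimate above 0 and a median of 0.65. None passed the threshold, and DESeq2 called 0. At an unadjusted p under 0.05 were 4 genes, all higher, against 221 higher among all 8200 tested genes. Map4k4, a kinase that activates LATS, stood at 117 ± 30.9 and 228 ± 65.4 CPM (edgeR adjusted p = 0.51). Wwc2, a KIBRA family scaffold, stood at 50.2 ± 12.6 and 108 ± 9.53 CPM (edgeR adjusted p = 0.659), and the kinase gene Taok3 at 23.4 ± 24.3 and 84.4 ± 24.2 CPM (edgeR adjusted p = 0.642; SD, n = 3 per group). The groups of these 3 genes, which were named for the smallest p of the list, did not overlap. In the list 4 genes had groups without overlap, all with KO higher, against 6.94% of all tested genes. Lats1, the partner of Lats2, had 18, 58 and 3 counts in WT and 54, 72 and 274 counts in KO-labelled libraries, with overlapping groups in CPM. Inhibitors of the kinases had a median of 0.63 over 8 tested genes and no call. Without WT replicate 6 this median was 0.20, and without WT replicate 5 it was 0.98. Strn3, a subunit of the STRIPAK phosphatase complex, stood at 91.6 ± 10.6 and 165 ± 63.2 CPM with overlapping groups (edgeR adjusted p = 0.776). Strn and Sike1, of the same complex, stood at 17.5 ± 9.55 and 36.7 ± 17.2 CPM and at 4.81 ± 5.59 and 24.6 ± 19.0 CPM, and neither passed. The 14-3-3 proteins and turnover factors that hold or degrade YAP had a median of 0.12 over 10 tested genes and no call. The sign of this median turned without KO replicate 6 (-0.15), KO replicate 4 (-0.051) or WT replicate 4 (-0.0017), and it was 0.23 without KO replicate 5, 0.032 without WT replicate 5 and 0.014 without WT replicate 6. Ywhaz, the abundant 14-3-3 zeta gene, stood at 915 ± 91.0 and 707 ± 96.1 CPM, Ywhab, the 14-3-3 beta gene, at 173 ± 1.61 and 218 ± 53.1 CPM, and Btrc, a subunit of the ubiquitin ligase that marks YAP for degradation, at 71.6 ± 32.8 and 35.9 ± 1.6 CPM. Over the inhibitors and the 14-3-3 list edgeR gave 0 genes an unadjusted p under 0.05, and DESeq2 called 0.

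**Figure D5:**
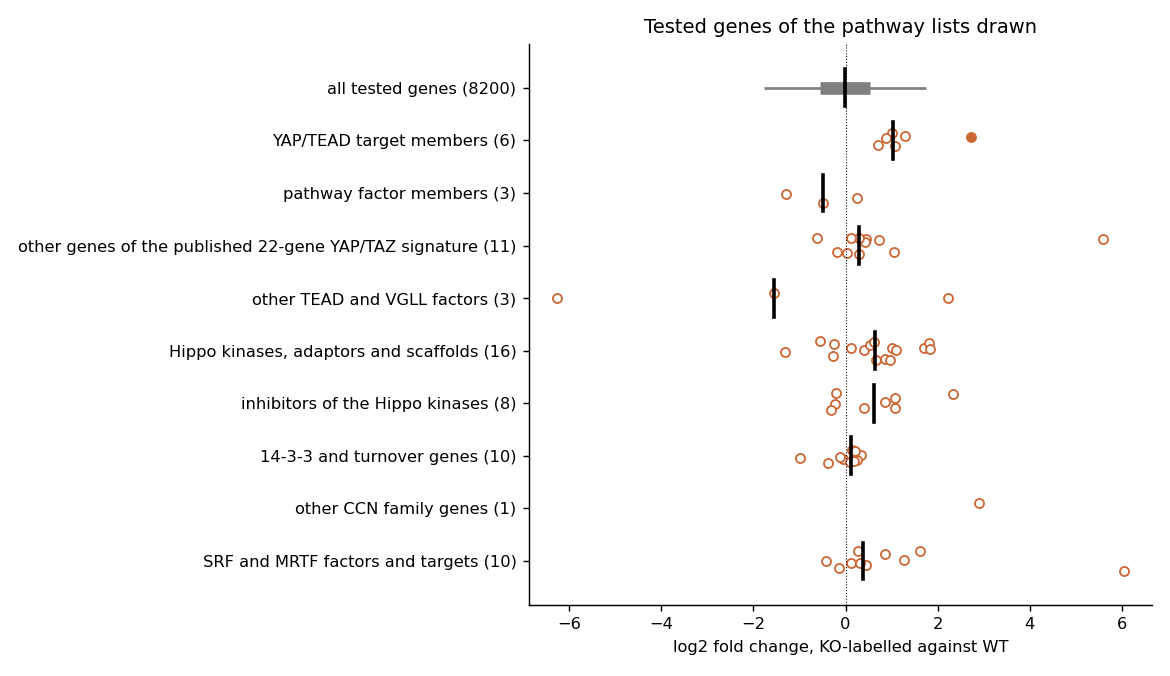
Log2 fold change of KO-labelled against WT libraries (x axis) for the tested genes of the lists (y axis, number tested in brackets), without the further reported targets. Circles are genes, filled where the edgeR adjusted p is under 0.05, and black bars are medians of lists with at least 3 tested genes. For all 8200 tested genes the thick grey bar spans the quartiles, from -0.56 to 0.54, and the thin bar the 5th to 95th percentile. The filled circle is Ankrd1.

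Serum response factor (SRF) and its cofactors, the MRTF proteins, share several targets with YAP through actin. Of 16 genes of that pathway 10 could be tested, 8 with an estimate above 0, a median of 0.38 and no call in edgeR, with 2 at an unadjusted p under 0.05 and 1 called by DESeq2. Fhl2, a LIM domain protein, had 3, 0 and 0 counts in WT and 35, 43 and 310 counts in KO-labelled libraries. The ratio was 85.6 with a 95% counting interval from 29.1 to 417, which leaves out the spread between libraries. With that spread the 95% interval of the log2 fold change ran from 1.66 to 10.4 (edgeR adjusted p = 0.455, DESeq2 0.00436). KO replicate 6 held most of the counts of Fhl2. Its log2 fold change of 6.05 became 4.60 without KO replicate 6 and 9.67 without WT replicate 4. Tpm1, a tropomyosin that stabilises actin filaments, stood at 919, 351 and 362 CPM in WT replicates 4 to 6 and at 940.2, 1017 and 979 CPM in KO replicates 4 to 6. WT replicate 4 was just below the KO-labelled libraries, and without it the log2 fold change went from 0.85 to 1.46 (edgeR adjusted p = 0.00554, 0.511 with all libraries). Zyx, the focal adhesion protein zyxin, had means of 41.0 ± 31.0 and 99.7 ± 53.4 CPM (edgeR adjusted p = 0.858). The smooth muscle genes Acta2, Actg2, Cnn1 and Myl9 had at most 8 counts in any library. Tagln, another smooth muscle gene, had 36 counts in KO replicate 5, 1 count in KO replicate 6 and 0 counts elsewhere, and genes on the other strand overlap 67.9% of its exons. Actb stood at 3481 ± 289 and 3168 ± 275 CPM (SD, n = 3 per group).

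The genes most like Ankrd1 across the 6 libraries were sought by the root mean square difference of log2 CPM, each gene centred on its WT mean, among 4534 genes whose log2 CPM averaged 5 or more. The nearest was Adamts1, a secreted metalloprotease, at a distance of 0.34. Stx4a, a plasma membrane syntaxin, followed at 0.41, then Ccn4 at 0.57 and, in the fifth place, Gdf6, a bone morphogenetic protein, at 0.65. Adamts1 stood at 82.8 ± 14.5 and 488 ± 112 CPM, and Stx4a at 21.3 ± 9.38 and 121 ± 32.7 CPM (SD, n = 3 per group). Adamts1 passed the threshold (edgeR adjusted p = 0.000929) and Stx4a did not (edgeR adjusted p = 0.0704). Gdf6 had means of 33.8 ± 17.8 and 131 ± 13.1 CPM (edgeR adjusted p = 0.234). The likeness was measured over the same libraries, so the group difference entered the choice of these genes.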

How the data were processed

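Poly(A) RNA of 6 ID8 libraries was sequenced, 3 labelled WT and 3 labelled KO. Per the submitters' processing notes, reads went through tools that include featureCounts 1.5.0-p3, HISAT2 2.0.5 and fastp, on build mm10, with settings and strand mode not given in the sources used here. Raw gene counts were deposited by the authors without normalization. Symbols, coordinates and exon lengths came from GENCODE M21 and promoter windows from RefSeq (GRCm38.p6, the same build).

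The test was that of edgeR 4.0.16 under R 4.3.3 (filterByExpr with a minimum count of 10, TMM, robust quasi-likelihood fit, group as the only term, two-sided, Benjamini-Hochberg adjustment over 8200 genes, threshold 0.05). CPM values use TMM-scaled library sizes. For log2 CPM in the likeness measure a prior count of 2 was used. Scripts were tested on simulated data. Alternatives were DESeq2 1.42.0, voom (limma 3.58.1), other scalings and filters, a replicate block and each library left out. Folds against an undetected group use a floor of 3 counts per group.

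The members and lists were chosen with earlier results of these data known. Beside the members, the genes named are Nat10, called genes of the lists, up to 3 further genes per list with the smallest p, and the 5 most like Ankrd1. Tead2, Tead3, Lats1, Myof, Actb, Actc1, Tagln and genes given as undetected or as markers were named after their values were seen. A gene that the rule takes, and the results that need it, are not reported here.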

Additional observations from a re-analysis of the deposited data

How the results depend on the processing

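Ankrd1 was called under each of the 7 other settings on all libraries and with each of the 6 libraries left out, and log2 fold changes of the other targets and of Yap1 kept their sign in all of these fits. DESeq2 called 234 genes, 4 of them members, and the fit without a filter on low counts called 91 genes, 2 of them members (Ankrd1 and Ccn2). With 1 library left out 6 to 29 genes were called, with 1 member each time. Leaving out WT replicate 4 left 29 calls, WT replicate 5 or 6 left 6 calls each, and KO replicates 4, 5 and 6 left 15, 20 and 18; whether fewer libraries or the library left out lowered the counts was not tested. Library totals moved the median log2 fold change of all tested genes from -0.02 to 0.09. The sign turned for Nat10 in limma-voom (0.019), with library totals (0.026), without WT replicate 6 (0.35) and without KO replicate 5 (0.23), for Tead1 without KO replicate 5 (0.11), and for Wwtr1 without WT replicate 6 (-0.20) or KO replicate 5 (-0.73); the cause was not tested. With 1 library left out the values ran from -0.35 to 0.35 for Nat10, from -1.01 to 0.11 for Tead1 and from -0.73 to 0.69 for Wwtr1. Deviations of same-numbered libraries from their group means correlated at -0.02, 0.00 and -0.01 over genes. The highest values, 0.03 each, were those of WT replicate 4 with KO replicate 5 and of WT replicate 6 with KO replicate 4. Since all pairs lay near 0, this measure cannot decide if the replicate numbers pair the libraries. With the replicate block 38 genes were called, 19 of them higher, and Ankrd1 was again the 1 member called. Among lists, the median of the 14-3-3 and turnover genes moved from 0.12 to 0.23 with library totals, and that of the SRF and MRTF genes from 0.38 to 0.24 in limma-voom. Counts of the factors were low, and what depth added to the width of their intervals was not tested.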

Other observations

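The TEAD element also stood in the promoter windows of other genes of the pathway. Among the other TEAD and VGLL factors 4 of 6 genes with a window held CATTCC, among the inhibitors of the Hippo kinases 3 of 6, and among SRF and MRTF factors and targets 5 of 13. Of 16 Hippo kinases, adaptors and scaffolds 4 held it, and of 7 genes for 14-3-3 proteins and turnover factors none did. The share over all genes was 16.6%, and these lists are too short for more than a description.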
